A study of Mus musculus with 23 samples.

Results

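The genes examined here are the orphan and adhesion G protein-coupled receptors of mouse microglia. The members were the probe sets of the array whose annotated symbol is Gpr followed by a number, or starts with Adgr. The rule found 92 probe sets of 22203, each with a symbol of its own: 69 Gpr-numbered genes and 23 adhesion receptor genes (Adgr). Of the Gpr-numbered symbols, Gpr137b-ps carries the suffix of a pseudogene and is counted with the others. Microglia were sorted as CD45+ CD11b+ cells from cortex and hippocampus, and RNA was measured in 23 samples of 6 groups.

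Receptors of this superfamily cross the membrane with a bundle of helices, and once activated they load the alpha subunit of a heterotrimeric G protein with GTP. The alpha subunit and the freed beta-gamma pair then act on adenylyl cyclase, phospholipase C or ion channels, and RGS proteins, receptor kinases and arrestins end the signal. Many Gpr-numbered receptors were orphans when named, and several have since been paired with lysophospholipids, oxysterols, fatty acids or protons. Adhesion receptors carry a long extracellular part that is cleaved next to the membrane and binds matrix or cell surface proteins. In microglia, Gpr34 and Adgrg1 are widely used as genes of the resting, tissue-resident state, and Adgre1 encodes a surface antigen widely used to mark macrophages.

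The groups were as follows. Wild-type mice (WT) were C57BL6, with 4 samples taken at 3 months of age and another 4 at 12. Mice of line APPswlnd (APP), with a human amyloid precursor protein transgene carrying familial mutations, were sampled 3 times at 3 months, labelled as before pathology, and 4 times at 12. The P301S (PS19) line (TAU), with a mutant human tau transgene, gave 4 samples at 3 months, also labelled as before pathology, and 4 later ones, for which the age field says 9 months and the titles say 12. The later APP and TAU samples held cells that the labels call active, taken as Clec7a+, and these are called gated below. No Clec7a gate is named for the other 4 groups. Strain, pathology and gate therefore cannot be told apart in the gated groups, nor can age in the gated TAU group against WT at 12 months. The labels call the replicates biological and do not say that they came from different animals. The p-values thus rest on the spread among the samples, which may be technical in part. In bulk RNA of this kind, fewer cells of a type and less RNA per cell cannot be told apart.

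The values are log2 signals, and no level of a gene was set against the level of another gene. Background was taken, in each group, as the 95th percentile of the group means of 1440 odorant, vomeronasal and taste receptor probe sets, and lay between 7.73 and 8.10. All 7 measured microglial markers were above background in every group. Their summed signal (log2) ran from 19.56 to 19.997 in the ungated samples and from 18.75 to 18.98 in the gated ones, and 5 of the 7 fell in each gated group, P2ry12 and Tmem119 in both. Some libraries stood apart. WT 12 months replicates 2 and 4 had a chemosensory receptor median of 6.32 each, against 5.93 and 5.62 in replicates 1 and 3. Gated APP replicates 2 and 3 had the highest endothelial and pericyte marker sums of all samples, 12.45 and 11.35. In gated TAU the border macrophage markers summed to between 12.48 and 14.60, against 11.28 to 11.78 in WT at 12 months. Of the 8 markers Ms4a7 alone was called, at 11.17 to 14.27 against 8.09 to 9.27. The uncalled Siglec1, Mrc1, F13a1, Pf4, Cbr2, Lyve1 and Cd163 differed by 0.57, 0.52, 0.39, 0.16, 0.14, -0.34 and -0.11. In gated APP, Cbr2 alone of the 8 was called against WT, lower by 1.23. Between the gated groups, Mrc1 (-1.675) and Ms4a7 (-2.555) were called lower in gated APP, and 0 were called higher. The part of this list in the receptor changes was not tested. The level of Y-linked genes, averaged over a fixed list, ran from 6.06 to 7.46 over the WT samples. It ran from 4.14 to 4.62 in young APP and from 4.16 to 7.13 in gated APP. In young TAU it ran from 3.997 to 6.88, and in gated TAU from 4.50 to 6.78. All young APP samples thus lay below all WT samples in this level. Line and Y-linked level therefore cannot be told apart between young APP and young WT. The APP change from 3 months starts from the same young samples. Calls that were lost without these libraries, or with that Y-linked level in the model, are given with those values.

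In wild-type microglia, 18 of the 92 receptor genes (19.6%) lay above background at both ages, against 33.9% of all 20763 probe sets (members included) left once the chemosensory ones were set aside. Another 3 (Gpr27, Gpr37l1 and Gpr107) were above it at 3 months alone and none at 12 months alone. The share differed by kind of receptor. It was 5 of 9 for receptors of lipids and metabolites (Gpr34, Gpr183, Gpr84, Gpr35 and Gpr31b), 5 of 9 for receptors of internal membranes (Gpr155, Gpr137, Gpr137b, Gpr137b-ps and Gpr108) and 5 of 23 for adhesion receptors (Adgrg1, Adgre1, Adgrd1, Adgrl2 and Adgra2). It was 3 of 45 for the remaining Gpr-numbered members (Gpr165, Gpr160 and Gpr20), not all of which are orphans. For acid-sensing receptors and for the constitutive cAMP-raising receptors Gpr3, Gpr6 and Gpr12 it was 0 of 3 each. The kinds come from a list of roles, with unlisted members left in the remainder, and the shares were not tested against each other. In no group did 67 members exceed background, with group means between 3.86 and 7.81, while 4 members below it in both WT groups exceeded it elsewhere (Gpr65, Gpr75, Adgrf5 and Adgrl4). At 12 months the member nearest above the threshold was Gpr20 at 8.18, and the nearest below it was Gpr27 at 7.92. For the 18, the SD between replicates had a median between 0.28 and 0.48 in the 6 groups.

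**Figure D1:**
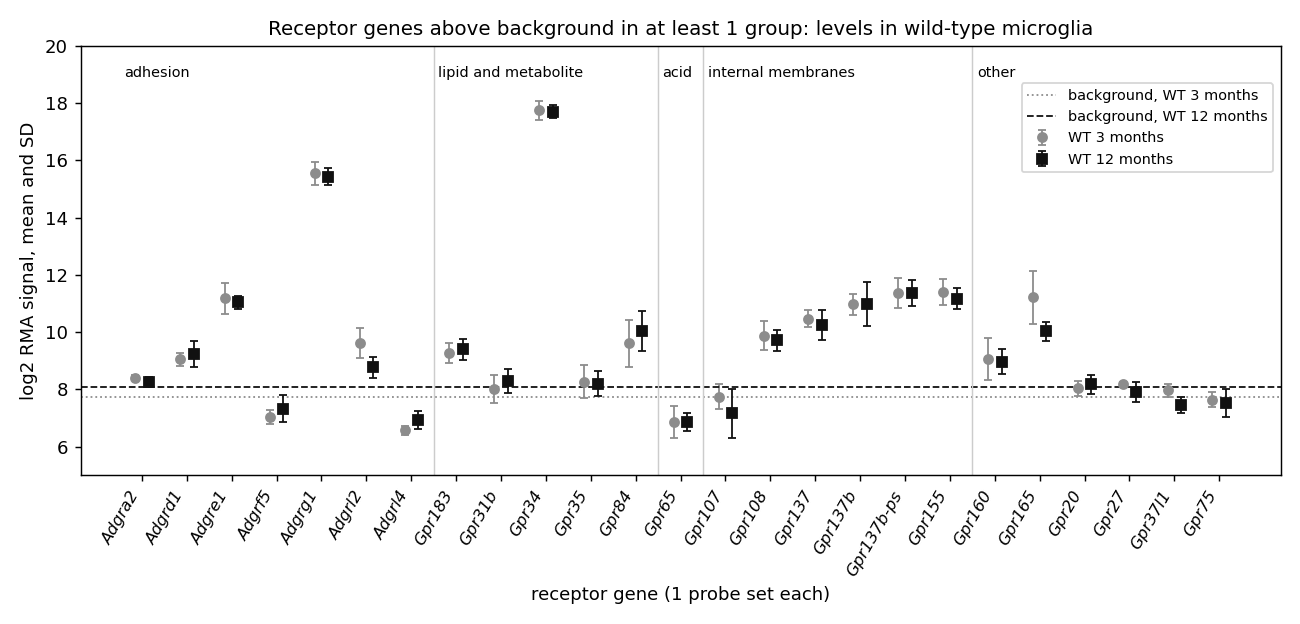
Log2 signal (mean and SD, n = 4 per group) of the 25 receptor genes above background in at least 1 of the 6 groups, in WT at 3 months (grey circles) and 12 months (black squares), ordered by kind of receptor, with each group's background as a line. Each gene is read against the lines and not against other genes; Gpr34 and Adgrg1 sit far above background at both ages, and Gpr65, Adgrf5 and Adgrl4 sit below it.

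In gated APP cells against WT at 12 months, 2 members rose and 4 fell at an adjusted p under 0.05, which is 6.52% of the 92, where 9.08% of all 22203 probe sets were called (5.6% higher and 3.48% lower). In gated TAU cells 3 rose and 6 fell, which is 9.78%, where 8.76% of all probe sets were called (5.09% higher and 3.67% lower). The members as a whole were thus called about as often as other probe sets. Their median log2 fold change was -0.08 in gated APP and -0.04 in gated TAU, and that of all probe sets was -0.06 and -0.05. Of the 18 genes above background in both WT groups, 4 were called in gated APP (22.2%, against 19.5% of the 7094 probe sets that met the same condition) and 6 in gated TAU (33.3%, against 18.5%). Both comparisons use the same WT samples. Each called Gpr65 higher and Adgrg1, Gpr165, Gpr183 and Adgre4 lower. Gpr84 was called in gated APP alone, and Gpr34, Gpr155, Gpr137b-ps and Gpr75 in gated TAU alone. Between the gated groups no member was called, so none of these 5 was shown to differ between the models.

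**Figure D2:**
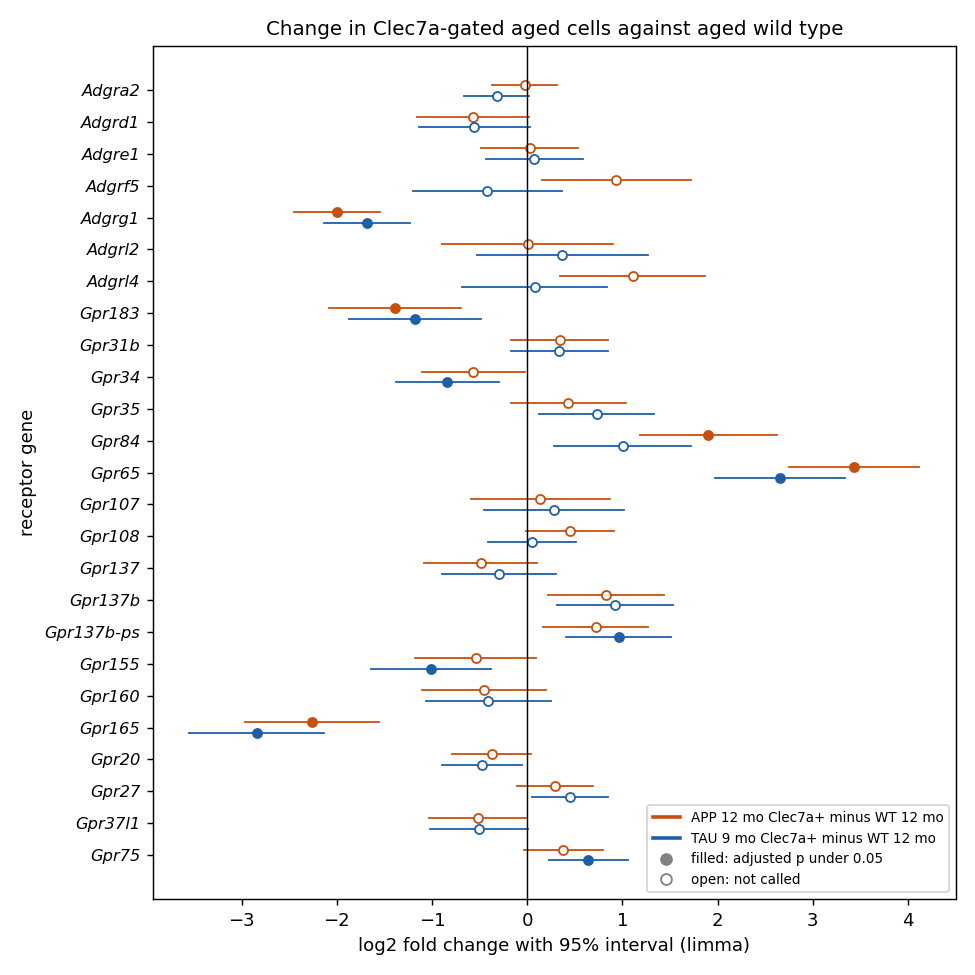
Log2 fold change with its 95% interval (limma) of the 25 receptor genes above background in at least 1 group, for gated APP (orange) and gated TAU (blue) cells against WT at 12 months; filled points have an adjusted p under 0.05. Adgrg1, Gpr165 and Gpr183 lie to the left and Gpr65 to the right of 0 in both comparisons, while Gpr84 is filled in APP and Gpr34, Gpr155, Gpr137b-ps and Gpr75 in TAU.

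Among the adhesion receptors, Adgrg1 (GPR56), whose ligands include type III collagen, transglutaminase 2 and phosphatidylserine, fell in both gated groups. Its 4 WT samples at 12 months read 15.50, 15.28, 15.81 and 15.16. Those of gated APP read 13.52, 13.41, 13.35 and 13.48, and those of gated TAU 14.01, 13.22, 13.83 and 13.95. Every gated sample lay below every WT sample, and the gated APP samples lay closer together (SD 0.08, n = 4) than those of any other group, whose SD ran from 0.29 to 0.39. The log2 fold change was -2.00 ± 0.22 (SE; adjusted p = 8.41e-07) in gated APP, 3.99-fold, and -1.69 ± 0.22 (adjusted p = 1.36e-05) in gated TAU, 3.22-fold. The 11 young samples read between 15.06 and 15.89. The fall was called under every alternative tried, at -2.21 and -1.90 without WT replicates 2 and 4. The table of RefSeq promoters (GRCm38.p6, 250 bases before each start) lists 2 starts for Adgrg1. The second, chr8:94984149-94984398 on the plus strand, is shown because it carries the AP-1 motif TGACTCA at 2 places, one on each strand, in capitals.
Adgrg1: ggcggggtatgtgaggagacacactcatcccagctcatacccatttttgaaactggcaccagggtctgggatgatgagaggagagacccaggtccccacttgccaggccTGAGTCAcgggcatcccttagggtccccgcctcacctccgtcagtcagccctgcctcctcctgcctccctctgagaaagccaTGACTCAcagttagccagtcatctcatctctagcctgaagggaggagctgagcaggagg
The matches begin 141 and 59 bases before the start. At least 1 match was present in 4.46% of all 32851 promoters, and 2 or more in 0.167%. The promoters of Adgrf4, Gpr35 and Gpr39 were the other member promoters with a match, among 91 promoters of the 71 members that matched the table by gene identifier.

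The other adhesion receptors above background in WT were not called. Adgre1 read between 10.78 and 11.29 in WT at 12 months, between 10.81 and 11.45 in gated APP and between 11 and 11.25 in gated TAU. These ranges overlap, and the log2 fold changes were 0.03 (95% interval -0.49 to 0.54) and 0.08 (-0.44 to 0.59). The sign of the first turned under several alternatives. Adgrd1 (GPR133), which couples to the cAMP-raising G protein, was at 9.24 ± 0.45 (SD, n = 4) in WT at 12 months, 8.67 ± 0.64 in gated APP and 8.68 ± 0.55 in gated TAU, with adjusted p of 0.245 and 0.253. The latrophilin gene Adgrl2 was at 8.77 ± 0.36, 8.78 ± 0.73 and 9.14 ± 0.49 in the same order, and was the most variable member in young TAU (SD 1.08). Adgra2 (GPR124), known as a Wnt7 co-receptor of brain vessels, changed by -0.03 in gated APP and -0.32 in gated TAU (adjusted p = 0.951 and 0.258). Adgre4, a close relative of Adgre1, was called lower in both groups (-0.90, adjusted p = 0.0125, and -1.13, adjusted p = 0.00239), but all its group means, 5.79 to 6.92, were below background, so no fold is given. The APP call was lost without WT replicate 1 (adjusted p = 0.0506) and without WT replicates 2 and 4 (0.0515).

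Adgrf5 (GPR116) and Adgrl4 (ELTD1), adhesion receptors of endothelial cells, are described because they exceeded background in gated APP alone, and were chosen after their values were seen. Adgrf5 read 7.32, 9.85, 8.56 and 7.32 in gated APP replicates 1 to 4, and Adgrl4 read 7.15, 9.45, 8.49 and 7.09. Replicates 2 and 3 were high for both genes, and replicates 1 and 4 lay within the range of the WT samples at 12 months (6.91 to 8 and 6.53 to 7.25). Neither was called against WT (log2 fold change 0.94 ± 0.38, adjusted p = 0.138, and 1.11 ± 0.37, adjusted p = 0.0623), though alternatives called Adgrf5 in 2 of 17 (adjusted p from 0.0385) and Adgrl4 in 7 of 17 (from 0.0134). Without replicates 2 and 3 the values were -0.01 (adjusted p = 0.995) and 0.18 (adjusted p = 0.811). The same replicates had the highest endothelial and pericyte signal. All 7 markers were measured, 3 of them above background in gated APP and 2 in WT at 12 months. Their summed signal in gated APP was 10.04, 12.45, 11.35 and 10.35, against 10.22 to 10.86 in WT at 12 months and 9.91 to 10.22 in gated TAU. In the young groups it was 9.997 to 10.33 in WT, 10.22 to 10.59 in APP and 10.04 to 10.58 in TAU. The tight junction gene Cldn5 read 9.37 and 6.95 in gated APP replicates 2 and 3 and between 4.97 and 6.66 in all 21 other samples. Slco1a4, Ly6c1 and Flt1 were also highest in those replicates. Pecam1 (7.45 and 6.58), Vtn (8.16 and 7.99) and Pdgfrb (6.38 and 6.13) lay there within the range of the other samples. Flt1 was high in gated APP replicates 1 and 4 too (8.63 and 8.71), against at most 8.31 outside gated APP. Among the remaining called members, Gpr65, Adgrg1, Gpr165, Gpr183 and Gpr84 were also called in gated APP without replicates 2 and 3, and Adgre4 was not (-0.77, adjusted p = 0.151). Of the 7 markers, Flt1 rose at least 2.47-fold in gated APP from below background, Pecam1 was called lower between background levels, and the part of these cells in the receptor values was not tested.

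**Figure D3:**
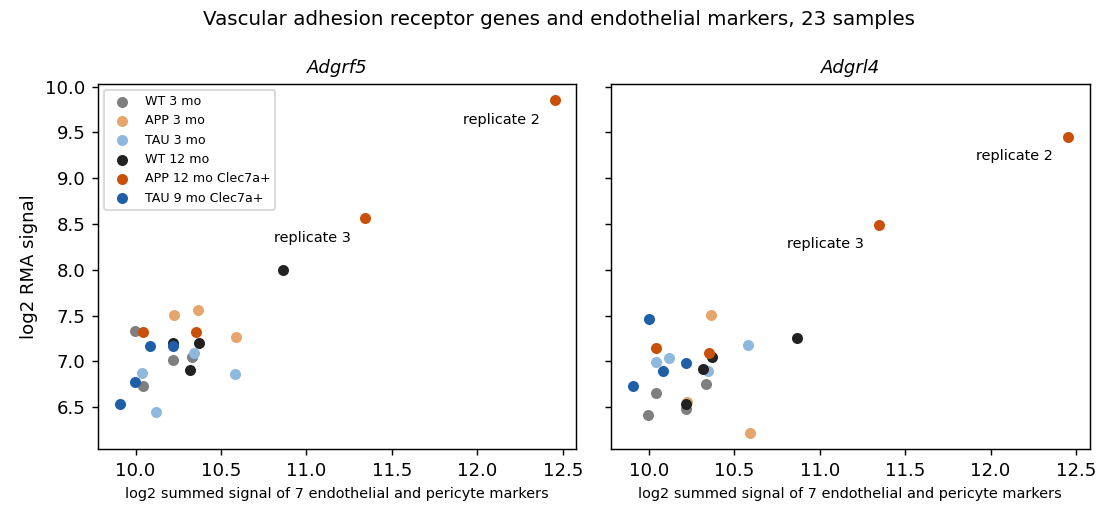
Log2 signal of Adgrf5 (left) and Adgrl4 (right) against the log2 summed signal of 7 endothelial and pericyte markers, 1 point for each of the 23 samples, coloured by group. Gated APP replicates 2 and 3, at sums of 12.45 and 11.35, stand apart at the upper right of both panels, while gated APP replicates 1 and 4 lie among the other samples.

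Receptors of lipids and metabolites moved both ways. Gpr34, the lysophosphatidylserine receptor of microglia, read 17.75, 17.60, 18 and 17.46 in WT at 12 months. It read 16.51, 17.41, 16.92 and 17.70 in gated APP and 16.78, 16.67, 17.28 and 16.73 in gated TAU. The gated TAU samples all lay below the WT samples, while 1 gated APP sample lay among them. The log2 fold change was -0.84 ± 0.26 in gated TAU (adjusted p = 0.0465) and -0.57 ± 0.26 in gated APP (adjusted p = 0.205), and the difference between the gated groups was 0.27 (95% interval -0.27 to 0.81). The TAU call held in 7 of 16 alternatives. It was lost without any 1 of the 4 WT samples or of gated TAU replicates 1, 2 and 4 (adjusted p up to 0.115), and the value was -1.01 (adjusted p = 0.0763) without WT replicates 2 and 4.

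Gpr183 (EBI2), a chemotactic receptor for dihydroxylated cholesterol, fell in both gated groups. It read 9.92, 9.39, 9.19 and 9.09 in WT at 12 months, 7.5, 8.85, 7.62 and 8.08 in gated APP, and 8.32, 8.80, 7.80 and 7.94 in gated TAU. All gated samples were below all WT samples of that age, and 3 of the 8 were at or below their group's background. The log2 fold change was -1.39 ± 0.33 in gated APP (adjusted p = 0.00826, 2.61-fold) and -1.18 ± 0.33 in gated TAU (adjusted p = 0.0276, 2.27-fold). The APP call held under all 17 alternatives and the TAU call under 9 of 16. The latter was lost without WT replicate 1 or 2, or gated TAU replicate 1, 3 or 4 (adjusted p up to 0.0990). Without WT replicates 2 and 4 the TAU value was -1.34 (adjusted p = 0.0675), and with the Y-linked level in the model it was -0.96 (adjusted p = 0.0660). The enzyme that begins the synthesis of its ligand, cholesterol 25-hydroxylase (Ch25h), rose from background in both groups. Ch25h read 5.77, 5.19, 5.61 and 5.31 in WT at 12 months, 7.73, 10.70, 10.88 and 8.94 in gated APP, and 8.33, 9.21, 8.78 and 6.70 in gated TAU. No gated sample fell within the range of the WT samples, and 1 sample of each gated group stayed below its background. Since the WT level is below background, the rise is given against the background of the WT group. All folds written "at least" are taken in this way, against the background of whichever group was lower. The rise was at least 2.75-fold in gated APP (adjusted p = 4.46e-06) and at least 1.11-fold in gated TAU (adjusted p = 0.000773). The higher gated APP samples are replicates 2 and 3, those with the highest endothelial sums, and without them the log2 change moved from 4.09 to 2.87 (adjusted p = 0.000221) and the bound to at least 1.17-fold. Of the other 3 genes of this pathway, Cyp7b1 and Hsd3b7 were at background in the compared groups and Cyp27a1 did not pass the test (9.79 in WT at 12 months, 9.64 and 9.71 in the gated groups).

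Gpr84, a receptor for medium-chain fatty acids found on activated myeloid cells, rose in gated APP. It read 10.47, 9.01, 10.42 and 10.25 in WT at 12 months, 12.20, 11.81, 11.88 and 11.87 in gated APP, and 10.89, 10.51, 11.76 and 11 in gated TAU. Both gated groups lay wholly above WT, and WT replicate 2 lay more than a log2 unit below the other WT samples. The log2 fold change was 1.90 ± 0.35 in gated APP (adjusted p = 0.000647, 3.74-fold) and 1.0025 ± 0.35 in gated TAU (adjusted p = 0.0780). The direct difference, APP minus TAU, was 0.90 (95% interval 0.18 to 1.62), and its adjusted p was 0.352. Without WT replicates 2 and 4 the values were 1.495 (adjusted p = 0.0197) and 0.60 (adjusted p = 0.454). The single Gpr84 promoter in the RefSeq table, chr15:103310439-103310688 on the minus strand, is shown as that of a member that rose, with no capitals.
Gpr84: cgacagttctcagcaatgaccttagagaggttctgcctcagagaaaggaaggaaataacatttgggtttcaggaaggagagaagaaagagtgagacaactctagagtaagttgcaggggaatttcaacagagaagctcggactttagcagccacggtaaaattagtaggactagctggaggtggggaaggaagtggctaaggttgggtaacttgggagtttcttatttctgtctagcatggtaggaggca
Neither TGACTCA nor any of the other motifs searched on both strands in the member promoters (PU.1 core GAGGAA, E-box CACGTG, CRE TGACGTCA and the NF-kB motif) is written in this window. All promoters hold these 4 in shares of 23.3%, 6.02%, 1.55% and 0.14%.

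Gpr35, a receptor for kynurenic acid and lysophosphatidic acid, and Gpr31b, a receptor for a hydroxylated arachidonic acid, did not pass the test. Gpr35 was at 8.21 ± 0.44 in WT at 12 months, 8.64 ± 0.44 in gated APP and 8.94 ± 0.35 in gated TAU (adjusted p = 0.420 and 0.135). Gpr31b was at 8.30 ± 0.42, 8.65 ± 0.29 and 8.64 ± 0.12 (adjusted p = 0.450 and 0.461). The other 4 receptors of this kind, among them the lysophosphatidylserine receptor Gpr174 and the cannabinoid-related receptors Gpr18, Gpr55 and Gpr119, were at background in all groups.

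The acid-sensing receptor Gpr65 (TDAG8), which raises cAMP when protons bind it, had the highest rise of all members. It read 7.01, 6.68, 7.25 and 6.55 in WT at 12 months, all below background. In gated APP it read 10.37, 11.04, 10.16 and 9.65, and in gated TAU 9.39, 10.05, 9.93 and 8.73. All 15 ungated samples lay between 5.81 and 7.46, and all 8 gated samples lay above them. The log2 fold change was 3.43 ± 0.33 in gated APP (adjusted p = 1.24e-07), at least 4.60-fold. It was 2.65 ± 0.33 in gated TAU (adjusted p = 7.71e-06), at least 2.68-fold. The difference between the gated groups, 0.78 (95% interval 0.10 to 1.46), did not pass the test. The Gpr65 promoter, chr12:98268385-98268634 on the plus strand, is shown because its gene had the highest rise, with 1 match to the PU.1 core GAGGAA in capitals, on the reverse strand.
Gpr65: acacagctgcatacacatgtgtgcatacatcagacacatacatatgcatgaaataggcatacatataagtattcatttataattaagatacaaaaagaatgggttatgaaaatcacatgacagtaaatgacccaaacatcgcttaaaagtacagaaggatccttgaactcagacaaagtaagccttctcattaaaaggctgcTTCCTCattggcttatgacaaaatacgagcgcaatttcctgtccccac
The match begins 48 bases before the start. Among members, 18 genes have such a match in 1 promoter each, 19.8% of the 91 member promoters, where 23.3% of all promoters have it. The related acid-sensing receptors Gpr132 and Gpr4 were at background in all groups. Gpr132, chosen after its values were seen, read 6.74 on average in WT at 12 months and 7.68 in gated TAU (adjusted p = 0.0547).

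**Figure D4:**
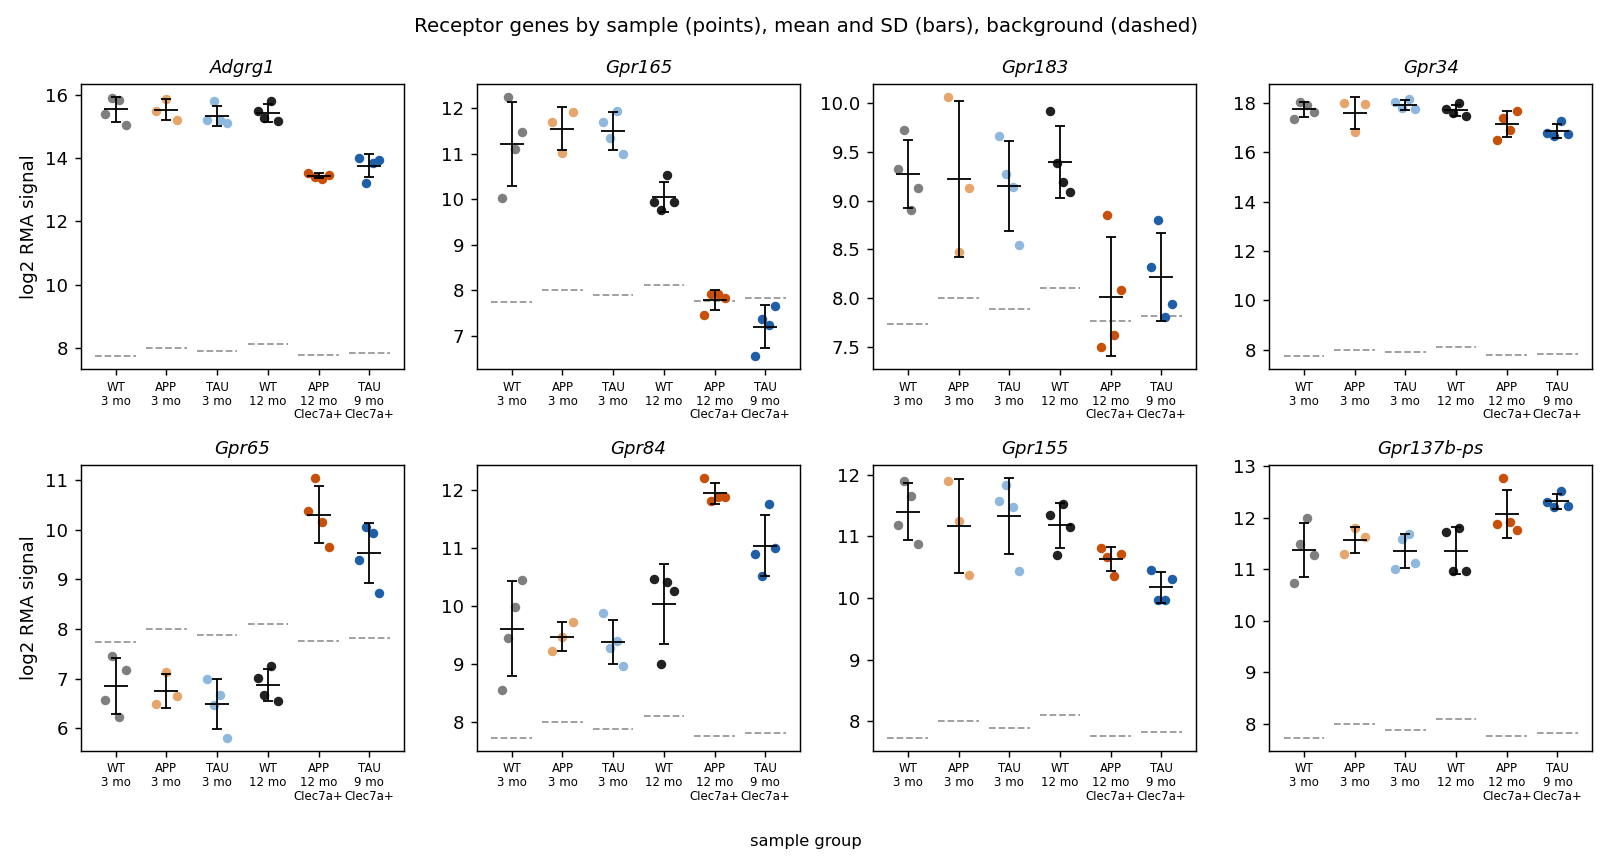
Log2 signal of 8 receptor genes in each of the 23 samples, by group, with the group mean and SD as bars and each group's background as a dashed line; the vertical axes differ between panels and do not start at 0. Adgrg1, Gpr165 and Gpr183 are lower in all 8 gated samples than in the 4 WT samples at 12 months, Gpr65 and Gpr84 are higher, and Gpr34, Gpr155 and Gpr137b-ps overlap with WT in gated APP.

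Receptors of internal membranes showed smaller differences. Gpr155, a lysosomal cholesterol sensor, read 11.34, 10.69, 11.53 and 11.15 in WT at 12 months and 10.45, 9.96, 9.96 and 10.31 in gated TAU, with no overlap. It fell in gated TAU by 1.01 ± 0.30 on the log2 scale (adjusted p = 0.0407), and in gated APP the change was -0.54 (adjusted p = 0.315). The TAU call held in 6 of 16 alternatives, and was lost without any 1 of the 4 gated TAU samples or of WT replicates 1, 3 and 4 (adjusted p up to 0.106). With arrays centred on their medians it was -0.95 (adjusted p = 0.0787), and with the Y-linked level in the model -0.87 (adjusted p = 0.0828). Gpr137b, a lysosomal membrane protein gene, and Gpr137b-ps, named as a pseudogene, have probe sets that may share targets. Their signals are uncertain, since that of one may come from the other, and Gpr137b-ps is not shown to be a separate receptor. Gpr137b-ps read 11.72, 10.97, 11.80 and 10.96 in WT at 12 months and 12.31, 12.22, 12.53 and 12.23 in gated TAU, a rise of 0.96 ± 0.26 (adjusted p = 0.0240). In gated APP the values were 11.88, 12.77, 11.91 and 11.76, and the change was 0.72 (adjusted p = 0.101). Replicates 2 and 4 of WT were the lower samples, and without them the TAU value was 0.56 (adjusted p = 0.342). The call was also lost without either of those WT samples alone, and without gated TAU replicate 1 or 3 (adjusted p = 0.0525 and 0.0720). Gpr137b, at 10.99 ± 0.77 in WT at 12 months, changed by 0.83 in gated APP (adjusted p = 0.0855) and 0.93 in gated TAU (adjusted p = 0.0516). Without WT replicates 2 and 4 these were 0.19 and 0.28 (adjusted p = 0.838 and 0.673), and with the Y-linked level in the model both were called (0.92 and 1.05, adjusted p = 0.04999 and 0.0295). Gpr137 changed by -0.49 and -0.30, and Gpr108, a Golgi protein gene, by 0.45 and 0.05, with adjusted p between 0.243 and 0.924 for these 4 values.

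Among the remaining Gpr-numbered members, Gpr165 had the deepest fall of the whole set. It read 9.94, 9.77, 10.52 and 9.93 in WT at 12 months, 7.45, 7.92, 7.92 and 7.83 in gated APP, and 6.55, 7.37, 7.23 and 7.65 in gated TAU. All gated samples lay below all WT samples, and all 4 gated TAU samples were below background. In gated APP replicate 1 was below the background of 7.765 and the others lay just above it, so the APP fold is also limited by background. The log2 fold change was -2.26 ± 0.34 in gated APP (adjusted p = 7.16e-05, 4.79-fold) and -2.84 ± 0.34 in gated TAU (adjusted p = 4.94e-06, at least 4.66-fold). At 3 months the WT samples read 10.02, 12.25, 11.11 and 11.48, and the mean at 12 months was lower by 1.18 ± 0.34, with 1 of the 4 young samples within the aged range (adjusted p = 0.357). The promoter, chrX:96713218-96713467 on the plus strand, is shown as that of the member that fell furthest and holds none of the 5 motifs searched.
Gpr165: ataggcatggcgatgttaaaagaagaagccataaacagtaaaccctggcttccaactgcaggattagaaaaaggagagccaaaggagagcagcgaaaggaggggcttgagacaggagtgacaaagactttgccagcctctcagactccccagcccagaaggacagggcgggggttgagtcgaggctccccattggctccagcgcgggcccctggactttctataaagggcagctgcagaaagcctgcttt
Gpr160 and Gpr20, whose ligands are not settled, were not called (-0.45 and -0.41 for Gpr160, -0.38 and -0.48 for Gpr20, in gated APP and gated TAU). Gpr75, for which an arachidonic acid metabolite and a chemokine have been proposed as ligands, read 7.26, 8.04, 6.98 and 7.82 in WT at 12 months and 7.82, 8.31, 8.09 and 8.45 in gated TAU. The groups overlap, with WT replicates 2 and 4 as the higher WT samples, and the rise of 0.64 ± 0.20 (adjusted p = 0.0475) amounts to at least 1.05-fold against background. It was 1.05 (adjusted p = 0.00284) without those WT samples, and it held in 6 of 16 alternatives, being lost without WT replicate 1 or 3 or gated TAU replicate 2, 3 or 4 (adjusted p up to 0.141), or with the Y-linked level in the model (0.59, adjusted p = 0.0818).

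Gpr37l1 and Gpr27, chosen after their values were seen, were above background in young WT and below it in WT at 12 months. Gpr27 was at 8.195 and 7.92 in these groups, whose backgrounds were 7.73 and 8.10, and was above background in 5 of the 6 groups. Its samples read 7.61 to 8.57 in gated APP and 8.18 to 8.56 in gated TAU. Gpr37l1, a receptor of astrocytes for which prosaposin has been proposed as a ligand, was at 7.97 in young WT, 7.47 in WT at 12 months and 6.95 and 6.96 in the gated groups, and no comparison called it. The astrocyte markers were all measured. Their summed signal ran from 11.03 to 13.02 in young WT, from 10.88 to 12.16 in WT at 12 months, from 9.88 to 11.62 in gated APP and from 9.80 to 11.62 in gated TAU, and their part in the Gpr37l1 values was not tested.

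Before pathology the receptor genes showed no called difference, though young APP also lay apart from young WT in the Y-linked level. In young APP against young WT 0 of 92 were called in limma (0% of all probe sets), with 2 at an unadjusted p under 0.05, and in young TAU 0 were called (0% of all probe sets) with 1 at that level. The 21 members above background in both WT groups or called in gated cells had log2 differences from -0.30 (Adgra2) to 0.53 (Adgre4) in young APP. In young TAU theirs ran from -0.38 (Gpr65) to 0.28 (Gpr165). Over all 92 members the range was -0.44 (Gpr12) to 0.695 (Adgrl3) in young APP. It was -0.53 (Gpr4) to 0.45 (Adgrl4) in young TAU. With age in WT, 0 of 92 were called (0.036% of all probe sets), with 3 at an unadjusted p under 0.05. Between gated APP and gated TAU 0 were called (0.928% of all probe sets) with 8 at an unadjusted p under 0.05, and the highest difference was that of Adgrf5 (1.35, adjusted p = 0.112). The change from 3 months to the gated cells was also set against the change of WT from 3 to 12 months. That difference was called for 5 members in APP (5.43%, against 3.8% of all probe sets) and 4 in TAU. In APP it was -1.97 for Adgrg1, -2.58 for Gpr165, 3.54 for Gpr65, 2.04 for Gpr84 and -1.43 for Adgre4. The TAU values were -1.46 for Adgrg1, -3.12 for Gpr165, 3.03 for Gpr65 and -1.35 for Adgre4, which are 4 members where 3.75% of all probe sets were called. The Gpr84 difference was lost without young WT replicate 3 or 4, young APP replicate 1 or 2, or gated APP replicate 1 (adjusted p up to 0.0582), and that of Adgre4 in APP without young APP replicate 1 (0.0531). Without WT replicates 2 and 4 the Gpr84 value was 1.63 (adjusted p = 0.104), and without gated APP replicates 2 and 3 it was 2.14 (0.0629) and that of Adgre4 -1.29 (0.0888). With the Y-linked level in the model, Gpr84 and Adgre4 in APP (adjusted p = 0.120 and 0.114) and Adgre4 in TAU (0.0579) were not called. Gpr34 and Gpr183 were called in neither.

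Genes that act before and after these receptors were read from a list of G protein subunits, RGS proteins, arrestins and receptor kinases, effectors and ligand genes, of which 94 were measured. In gated APP 7 rose and 6 fell (median log2 fold change -0.10), and in gated TAU 6 rose and 3 fell (median 0.01), beside the background shares of 9.08% and 8.76% given above. Adcy3 and Adcy8, called in gated APP, were at background. The gamma subunit gene Gng12 read 12.97, 12.47, 13.18 and 12.60 in WT at 12 months, 15.41, 15.35, 15.24 and 15.17 in gated APP, and 14.55, 14.62, 14.76 and 14.25 in gated TAU. It rose by 2.49 ± 0.19 in gated APP (adjusted p = 2.20e-09, 5.61-fold) and by 1.74 ± 0.19 in gated TAU (adjusted p = 9.33e-07, 3.34-fold), with no overlap. The gamma subunit gene Gng5 rose by 1.05 and 0.89, and the alpha subunit gene Gna13 by 1.13 and 1.48. The myeloid alpha subunit gene Gna15 fell from 12.998 ± 0.24 in WT to 11.14 ± 0.21 in gated APP and 11.98 ± 0.32 in gated TAU, changes of -1.86 (adjusted p = 2.64e-05) and -1.02 (adjusted p = 0.0144). Rgs2, which shortens signals of Gq subunits, fell by 1.71 ± 0.26 and 1.02 ± 0.26 on the log2 scale. Rgs3 fell by 0.96 in gated TAU, and the arrestin gene Arrb1 and the G protein chaperone gene Ric8b fell by 1.03 and 0.69 in gated APP. Those 3 calls held in 7 of 16, 9 of 17 and 8 of 17 alternatives, and single samples ended them: for Rgs3 WT replicate 2, 3 or 4 or gated TAU replicate 1 or 2, for Arrb1 WT replicate 1 or 3 or gated APP replicate 1 or 4, and for Ric8b WT replicate 2 or 4 or gated APP replicate 1 or 3 (adjusted p up to 0.155). The Y-linked level in the model ended the Arrb1 and Rgs3 calls (adjusted p = 0.0557 and 0.0527). In gated TAU, the Gna15 and Rgs2 calls were lost without replicate 3 (-0.88, adjusted p = 0.0600, and -0.83, adjusted p = 0.0632). Gnai2, at 14.33 in WT at 12 months, was not called in either group.

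Among ligand genes, Abhd12, which encodes a lipase that degrades the Gpr34 ligand lysophosphatidylserine, rose in both groups. It read 11.15, 10.57, 12.09 and 10.28 in WT at 12 months, 12.24, 12.42, 12.82 and 12.32 in gated APP, and 12.75, 11.90, 13.01 and 11.76 in gated TAU. WT replicates 2 and 4 were its lowest samples. The changes were 1.43 ± 0.34 (adjusted p = 0.00749) and 1.33 ± 0.34 (adjusted p = 0.0146). Without those samples they were 0.83 (adjusted p = 0.246) and 0.74 (adjusted p = 0.297), and the TAU call was also lost without either of them alone or gated TAU replicate 1 or 3 (adjusted p up to 0.0658). The same samples moved Gna13 to 0.66 (adjusted p = 0.282) in gated APP and 1.01 (adjusted p = 0.0606) in gated TAU, and the APP call was lost without WT replicate 4 or gated APP replicate 1 (adjusted p = 0.0580 and 0.0542). Also without them, the TAU values were 0.64 for Gng5 (adjusted p = 0.0833), -0.96 for Rgs2 (0.0933), -0.86 for Rgs3 (0.181) and 0.76 for Cxcl14 (0.125), and the APP value of Ric8b was -0.57 (0.266). Without gated APP replicates 2 and 3, the APP calls of Abhd12 (1.26, adjusted p = 0.103), Gna13 (1.06, 0.0734) and Ric8b (-0.81, 0.0580) were lost. The chemokine gene Cxcl14 rose by 1.48 and 1.04 over all samples. Tgm2, the transglutaminase named above as an Adgrg1 ligand, read 9.51, 8.54, 9.40 and 8.22 in WT at 12 months, 7.62, 7.19, 7.78 and 7.27 in gated APP, and 9.43, 8.67, 8.84 and 8.51 in gated TAU. It fell in gated APP by 1.45 ± 0.28 (adjusted p = 0.000933, at least 2.22-fold), did not pass the test in gated TAU (-0.06), and was lower in gated APP than in gated TAU by the direct test (-1.40 ± 0.28, adjusted p = 0.00836). Cd81, a tetraspanin that associates with the Adgrg1 product, was at 17.98 in WT at 12 months and was not called.

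**Figure D5:**
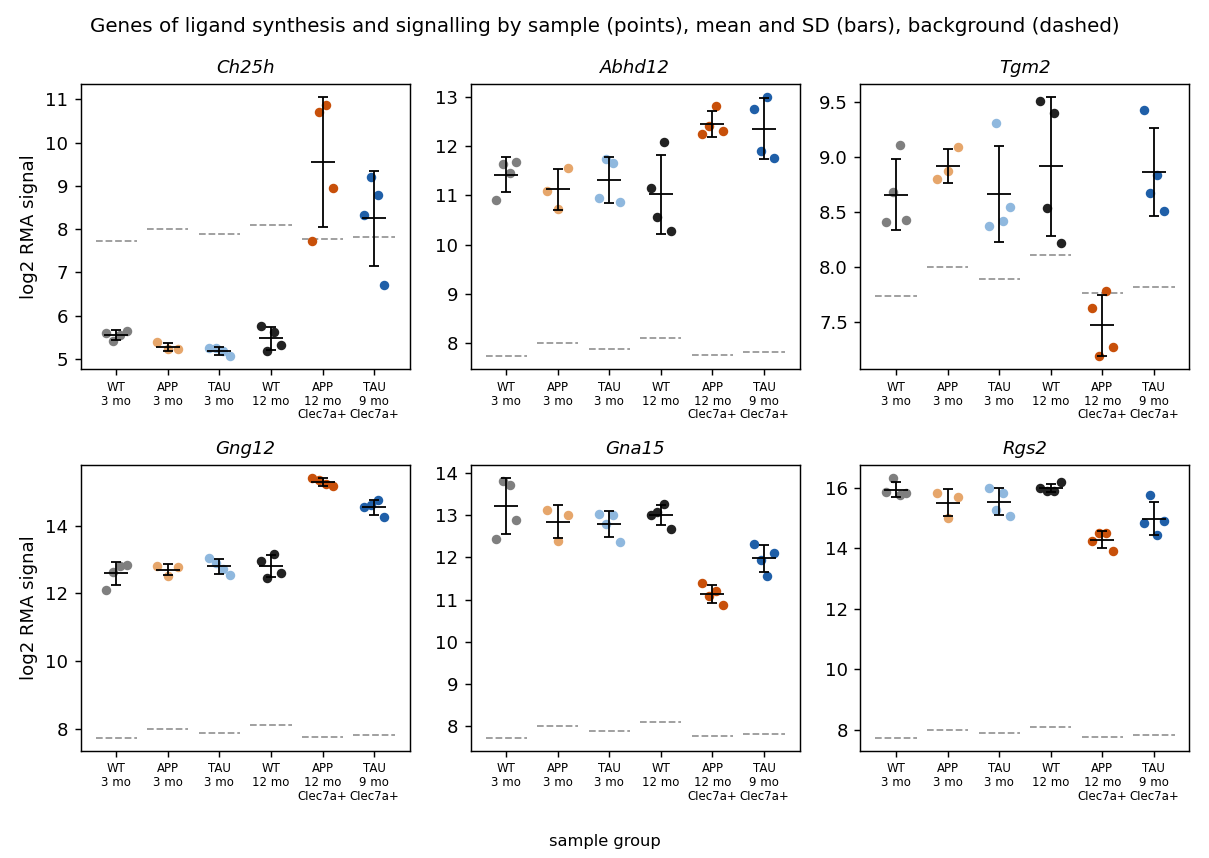
Log2 signal of 6 genes of ligand metabolism and signalling in each of the 23 samples, by group, with mean and SD as bars and each group's background as a dashed line; the vertical axes differ between panels. Ch25h lies below background in all 15 ungated samples, Tgm2 is lower in gated APP than in gated TAU, Gng12 is higher and Gna15 and Rgs2 are lower in all gated samples than in WT at 12 months, and WT replicates 2 and 4 are the lowest Abhd12 samples.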

How the data were processed

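Microglia of 6 groups were profiled on mouse expression arrays in 23 samples. The authors deposited log2 values for each probe set, made with RMA in the Transcriptome Analysis Console, per the submitters' processing notes; versions, filters and the genome build are not given in the sources used here. A linear model with a mean per group was fitted over all 22203 probe sets with R 4.3.3 and the limma package 3.58.1 (moderated by eBayes with a constant prior, 17 residual degrees of freedom), with Benjamini-Hochberg adjustment over all of them and calls at an adjusted p under 0.05, two-sided. Array medians ran from 6.87 to 7.13, and the number of arrays limits the precision (median SE 0.226). The script was tested on simulated data.

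Symbols come from the platform annotation, which named 19572 probe sets. Members, lists, marker genes and tests were chosen with earlier results of these data known. Members were named where above background in both WT groups, or where called with 1 group above background; from the signalling list, called genes above background, at most the 8 largest changes per comparison and the others chosen after their values were seen. Alternatives covered centring, a filter on dim probe sets, the variance prior, array weights, the groups in the fit, the replicate number, Y-linked genes, libraries that stand apart and each sample left out.

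Marker lists were read by their counts. Monocyte markers were at background in all groups. Neutrophil markers summed to between 8.61 and 10.95 in WT at 12 months and to between 8.23 and 8.48 in gated cells, where S100a8 was called lower at background. Of T and NK cell markers Klrb1c rose in gated TAU, and B cell, neuron and oligodendrocyte lineage lists held no called marker in gated cells; of astrocyte markers Gfap was called higher in gated APP. Between the gated groups, samples of 1 replicate number deviated together in all 4 pairs (correlations 0.182 to 0.424), which no label explains. With the replicate number as a block, still no member was called between the gated groups. Member calls against WT that changed with the block are given at the end.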

Additional observations from a re-analysis of the deposited data

Results flagged for a closer look

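Within groups of 4 samples, 7 of 105 groups tested over 21 members held a sample far from the others, where chance flags about 1 in 20. Adgrg1 was at 15.80 in young TAU replicate 2, against 15.12 to 15.21 in the others. Gpr84 was at 9.01 in WT 12 months replicate 2, against 10.25 to 10.47. Gpr137b-ps was at 12.77 in gated APP replicate 2, against 11.76 to 11.91. In gated TAU, Adgra2 was at 7.55 in replicate 1 (others 8.02 to 8.07), Gpr108 at 10.21 in replicate 1 (others 9.61 to 9.62), Gpr137b at 11.58 in replicate 2 (others 12.00 to 12.05) and Gpr20 at 8.03 in replicate 4 (others 7.59 to 7.61).

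The change from young to gated cells differed from the change of WT with age, by the interaction term of the limma fit, for 5 members in APP. The differences were -1.97 for Adgrg1 (adjusted p = 0.000464), -2.58 for Gpr165 (0.0028), 3.54 for Gpr65 (5.75e-05), 2.04 for Gpr84 (0.0228) and -1.43 for Adgre4 (0.0151), which lies at background. In TAU they were -1.46 for Adgrg1 (adjusted p = 0.00726), -3.12 for Gpr165 (0.000301), 3.03 for Gpr65 (0.000284) and -1.35 for Adgre4 (0.0188). The Gpr84 and Adgre4 differences in APP were not called with the Y-linked level in the model (1.88, adjusted p = 0.120, and -1.22, adjusted p = 0.114), nor was the Adgre4 difference in TAU (-1.23, adjusted p = 0.0579).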

How the results depend on the processing

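Leaving out 1 sample at a time, the members called numbered 6 to 11 in gated APP (11 without WT 12 months replicate 3) and 5 to 7 in gated TAU (5 without gated TAU replicate 3), 0 to 1 between the gated groups (1, Adgrf5, without gated APP replicate 1 or 4), and 0 to 0 in young APP, young TAU and WT with age. The differences from the WT change numbered 3 to 5 in APP (3 without young APP replicate 1) and 4 to 5 in TAU, called signalling genes 8 to 13 in APP and 6 to 11 in TAU, and members above background in both WT groups 14 to 19. Members above background numbered 10 at the 99th percentile. The APP difference from the WT change was called for 3 members, against 5, with the Y-linked level in the model and also without gated APP samples 2 and 3 (an alternative chosen after seeing the data). Without WT 12 months replicates 2 and 4, 4 signalling genes were called in TAU, against 9. The causes were not tested.

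Some small, uncalled differences turned sign. Adgrl2 in gated APP (0.01) was -0.16 with array weights, -0.26 without WT replicates 2 and 4, -0.38 without gated APP samples 2 and 3, and -0.31 to 0.29 with 1 sample left out. Adgra2 in gated APP (-0.03) was 0.05 with arrays centred, 0.0865 with array weights and -0.12 to 0.07 with 1 sample left out. Adgre1 in gated APP (0.03) was -0.0425 without WT replicates 2 and 4, -0.20 without gated APP samples 2 and 3 and -0.10 to 0.11 with 1 sample left out, and in gated TAU -0.0142 (without WT replicate 4) to 0.16. Gpr108 in gated TAU (0.05) was -0.24 without WT replicates 2 and 4 and -0.10 to 0.17 with 1 sample left out. Adgrf5 in gated APP was -0.0075 without gated APP samples 2 and 3.

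With the replicate number as a block, 7 members were called in gated APP and 10 in gated TAU, against 6 and 9, and 0 between the gated groups. Samples that share a number had positive correlations, 0.025 to 0.473 in gated APP and WT and 0.0577 to 0.415 in gated TAU and WT. No label explains the numbers, and the main fit did not use them as a pairing. Gpr137b and Gpr132 (at background) in gated TAU (adjusted p = 0.0358 and 0.0310) and Adgrl4 in gated APP (0.0153) were called with the block, and Gpr75 in gated TAU was not (0.0587).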
